A study of Mus musculus with 24 samples.

Results

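The 8 genes described here encode the cytotoxic machinery of lymphocytes. They are the granzymes Gzma, Gzmb, Gzmk and Gzmm, the pore former perforin (Prf1), the death ligand Fasl, and the granule-associated genes Ctsw and Nkg7. They were taken by name from the 35612 genes of the table, each matched to 1 Ensembl identifier, and all 8 were abundant enough to be tested among 18576 genes. A cytotoxic lymphocyte stores granzymes, which are serine proteases, with perforin in secretory granules. On contact with a target cell perforin opens its membrane and the granzymes enter and trigger cell death, while Fas ligand on the surface kills through the receptor Fas. These genes are best known from natural killer (NK) and CD8 T cells, but CD4 T cells can express them too, and activated regulatory T cells are known to carry granzyme B.

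The libraries held poly(A) RNA of CD4 T cells from male C57BL/6 Foxp3Thy1.1 mice, 5 months old, in which the surface protein Thy1.1 reports Foxp3, the transcription factor that defines regulatory T cells. Cells were enriched for CD4 and then sorted as live CD45+ TCRβ+ CD4+ cells that stained neither for NK-1.1 and CD8α nor with the CD1d tetramer that marks invariant NKT cells. Foxp3+ cells are called Treg and Foxp3− cells Tconv. Spleen, liver, blood (PBMC, mononuclear cells) and the lymph node that drains the liver (LDLN) were each sampled with 3 pools of Treg and 3 of Tconv. A pool came from 3 mice, and the 8 groups gave 24 libraries. All mice carried the reporter and none is labelled as treated, so by their labels the groups differ in tissue and Foxp3. Because cells were pooled, fewer expressing cells and less RNA per cell cannot be told apart in any of these values. The design compares Treg with Tconv within a tissue, liver with the lymphoid tissues within a cell type, and these liver differences between the cell types.

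Levels are normalized read counts, which are reads divided by a size factor per library. Differences are log2 differences of the value + 1 with their standard error (SE) from limma, and a gene was called at a Benjamini-Hochberg adjusted p below 0.05 over all genes tested. Depth was 17523927 to 25398037 reads. A read was worth 0.821 to 1.24 of a normalized count, so values under 10 rest on few reads, and reads carry no molecular identifiers.

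The promoters of 4 genes are printed because these genes were called between Treg and Tconv in the same direction in several tissues. Prf1, Fasl and Gzmk were lower in Treg in each tissue, while Gzmb was higher in Treg outside the liver. Each window holds the 250 bases before the RefSeq start on GRCm38.p6, in the direction of the gene, and capitals mark motif matches. RefSeq held an entry for 7 of the 8 genes, not for Ctsw, and its Gzmk start lies 44943 bases inside the longer GENCODE gene model, while its Gzmb start lies 74 bases before the GENCODE start.
Prf1 chr10:61297586-61297835 (plus strand): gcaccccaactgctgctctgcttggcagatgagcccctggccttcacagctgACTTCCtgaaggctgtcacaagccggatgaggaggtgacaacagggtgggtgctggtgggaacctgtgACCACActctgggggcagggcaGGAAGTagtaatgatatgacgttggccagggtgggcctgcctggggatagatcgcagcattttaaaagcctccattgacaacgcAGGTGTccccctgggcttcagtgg
Fasl chr1:161788496-161788745 (minus strand): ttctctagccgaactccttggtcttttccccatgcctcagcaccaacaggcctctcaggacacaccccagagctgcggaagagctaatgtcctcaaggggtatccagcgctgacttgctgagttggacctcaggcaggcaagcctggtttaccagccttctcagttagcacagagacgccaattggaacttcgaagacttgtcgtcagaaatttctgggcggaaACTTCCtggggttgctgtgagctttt
Gzmk chr13:113180966-113181215 (minus strand): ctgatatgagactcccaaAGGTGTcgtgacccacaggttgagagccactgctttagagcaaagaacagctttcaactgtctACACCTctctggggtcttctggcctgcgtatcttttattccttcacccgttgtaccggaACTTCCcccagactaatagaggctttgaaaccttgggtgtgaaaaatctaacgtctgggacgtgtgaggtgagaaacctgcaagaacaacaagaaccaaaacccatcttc
Gzmb chr14:56262335-56262584 (minus strand): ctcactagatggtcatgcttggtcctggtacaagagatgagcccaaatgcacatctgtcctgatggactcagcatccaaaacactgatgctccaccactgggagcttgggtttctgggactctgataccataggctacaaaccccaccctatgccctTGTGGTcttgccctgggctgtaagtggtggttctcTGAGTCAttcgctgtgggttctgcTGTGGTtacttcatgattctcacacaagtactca

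The 5 motifs were searched on both strands and were chosen after the expression values were seen. The Prf1 window held 1 RUNX core (TGTGGT or TGCGGT), 1 T-box half-site (AGGTGT) and 2 ETS cores (GGAAGT). The Gzmb window held 2 RUNX cores and 1 AP-1 motif (TGANTCA), the Gzmk window 2 T-box half-sites and 1 ETS core, and the Fasl window 1 ETS core. None of the 4 held the STAT motif TTCNNNGAA, and no match overlapped another. Of 32851 RefSeq windows of this length, 18.6% held the RUNX core, 11.8% the T-box half-site, 19.7% the ETS core, 6.75% the AP-1 motif and 7.02% the STAT motif. These matches describe letters, not bound sites.

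Marker genes were read to check the labels. The summed level of 6 T cell markers was 81152 to 123027 in all 24 libraries, and that of 5 Treg markers was 49197 to 90535 in Treg and 1426 to 15780.2 in Tconv. Foxp3 itself exceeded 100 in 5 of 12 Tconv libraries (Liver 1 and 3, LDLN 3, PBMC 1 and Spleen 3), and leaving these out keeps Liver Tconv 2 as the lone liver Tconv library, which is then assumed to vary like the other groups. NK-1.1+ cells were excluded by the sort. Even so, 8 NK cell markers summed to 793, 7499 and 1815 in the 3 liver Tconv libraries and to 565, 1294 and 567 in the PBMC Tconv libraries. These markers were Ncr1, Klrb1c, Klra4, Klra8, Klre1, Klri2, Tyrobp and Fcer1g, and the part of other cell types in their sum was not tested. The second library stood highest in both groups, and Ncr1, a receptor of NK cells, reached 992 and 179 there against 18.9 and 3.99 in the other liver Tconv libraries and 36.9 and 33.8 in the other PBMC Tconv libraries. Results are therefore given with and without Liver Tconv 2 and PBMC Tconv 2, called the NK-marker libraries, which leaves 2 pools in each of those groups. All other groups keep their values in that setting. Calls among those groups can move only with the shared estimate of the spread and the genes tested. Liver Tconv 2 also had macrophage markers of 8726 in sum (7 genes) against 141 and 77.8, and CD8 T cell markers of 1981 (2 genes) against 426 and 484. Spleen Treg 1 stood apart as well, with an NK sum of 1527 against 591 and 709. The sums of the 5 B cell markers reached 20579 in PBMC Tconv 2, those of 5 basophil and mast cell markers 599 in Liver Tconv 2, and those of 4 markers of innate-like and gamma-delta T cells 979.7 in Liver Tconv 2, the highest of the 24 libraries in each list. No marker of any list was at 0 in all 3 libraries of a group.

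**Figure D1:**
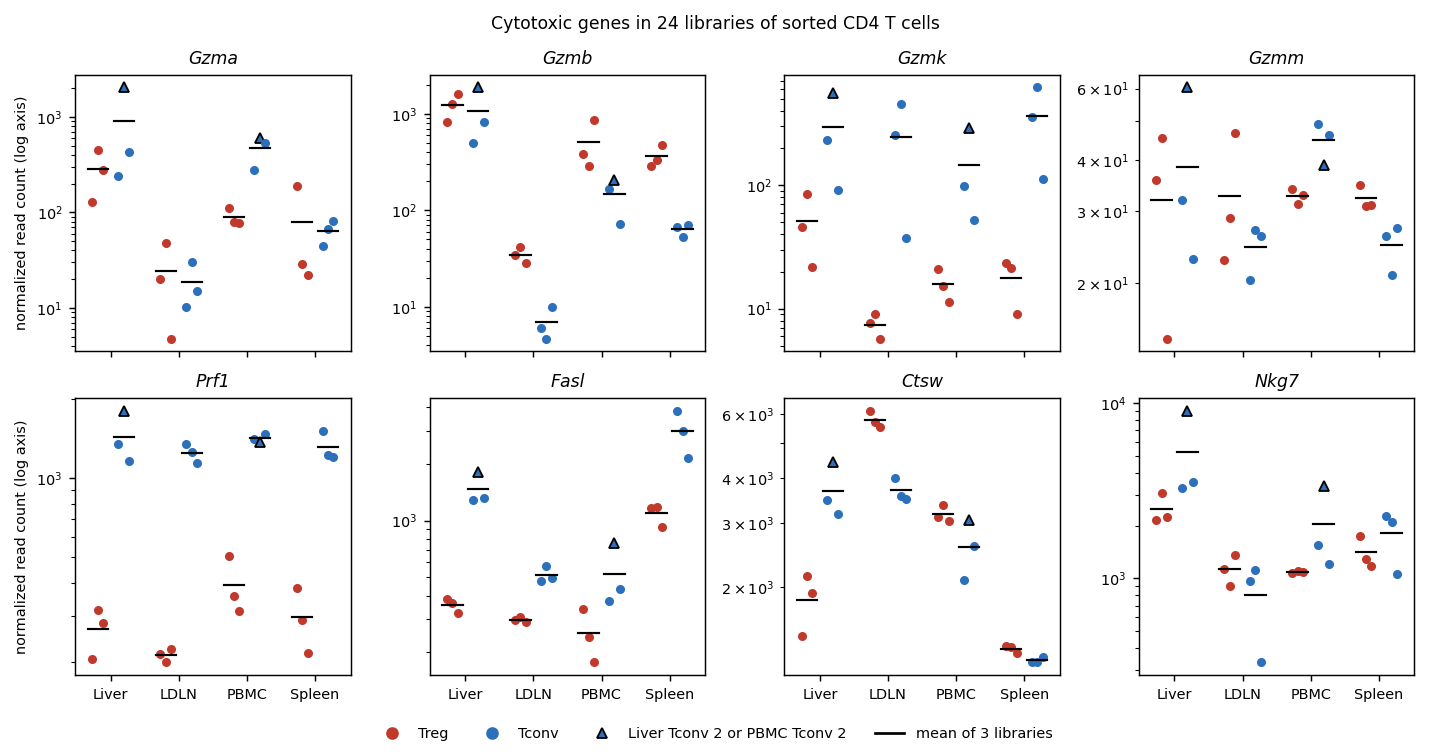
Normalized read counts of the 8 cytotoxic genes on log axes, 1 point per library, by tissue, with Treg in red, Tconv in blue, bars at the mean of 3 libraries, and triangles for Liver Tconv 2 and PBMC Tconv 2. Prf1 reached at most 505 in a Treg library and at least 1137 in a Tconv library, while Gzmb was lowest in LDLN Tconv and highest in liver.

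Treg and Tconv were compared within each tissue. Perforin was lower in Treg in all 4 tissues, by 1.88 to 2.54 on the log2 scale, and Fas ligand and granzyme K were lower in all 4 as well. Granzyme B was higher in Treg in LDLN, PBMC and spleen, by 1.75 to 2.47. Ctsw was lower in liver Treg and higher in LDLN Treg, and Gzma was lower in PBMC Treg. In liver 4 of 8 genes were lower in Treg and 0 were higher, against 10.3% lower, 10.2% higher and 20.5% in either direction among all genes. In LDLN 3 were lower and 2 higher, where 5.99% of all genes were lower, 7.83% higher and 13.8% either. PBMC had 4 lower and 1 higher, against 7.95%, 10.2% and 18.2%. Spleen had 3 lower and 1 higher, against 8.75%, 10.1% and 18.8%. The median difference over the 8 genes was −1.12, 0.19, −0.89 and −0.31 for liver, LDLN, PBMC and spleen, where all genes tested had medians of 0.026, 0.0023, −0.011 and −0.017. With Liver Tconv 2 and PBMC Tconv 2 left out, 3 genes were called in liver (22.8% of all genes), 5 in LDLN (14.9%), 4 in PBMC (16.3%) and 4 in spleen (21.3%).

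Perforin is the protein that lets granzymes enter a target cell. Prf1 (ENSMUSG00000037202, chromosome 10, 61297833 to 61304680, plus strand) had liver Treg values of 206, 315 and 282 and liver Tconv values of 1345, 1799.9 and 1165. In LDLN the values were 215, 199.5 and 225 in Treg and 1351, 1254 and 1137 in Tconv. PBMC gave 505, 357 and 312 in Treg against 1407, 1371 and 1465 in Tconv, and spleen 382, 288 and 217 in Treg against 1506, 1228 and 1199 in Tconv. Every Tconv library lay above every Treg library, across tissues as well as within them, and no other gene of the 8 separated the cell types in this way. Treg minus Tconv was −2.17 in spleen, −1.88 in PBMC, −2.54 in LDLN and −2.42 in liver (SE 0.197 each, limma adjusted p = 7.3e-08, 4.91e-07, 5.44e-09 and 1.95e-08 in that order). LDLN Tconv, with NK sums of 239, 217 and 158, had a Prf1 mean of 1247 ± 107 (SD, n = 3), and PBMC Tconv 2 had 1371 beside 1407 and 1465. Liver Tconv 2, with an NK sum of 7499, had 1799.9 beside 1345 and 1165, the highest Prf1 value of the 24 libraries. The part of NK cells in the Prf1 values was not tested. With both NK-marker libraries left out the difference was −2.24, adjusted p = 3.19e-07 in liver and −1.90, adjusted p = 2.29e-06 in PBMC.

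Fas ligand triggers death of cells that bear Fas. Fasl (ENSMUSG00000000817, chromosome 1, 161780689 to 161788495, minus strand) did not overlap between the cell types in any tissue, with Tconv above. Its values were 382, 363 and 322 in liver Treg and 1295, 1809.5 and 1324 in liver Tconv, and in spleen 1165, 1181 and 930.2 in Treg and 3834, 3016 and 2157 in Tconv. In LDLN they were 295, 308 and 289 in Treg and 476, 575 and 499 in Tconv, and in PBMC 339, 242 and 176 in Treg and 372, 759 and 434 in Tconv. Spleen stood highest in both cell types, and in PBMC the highest Treg library came near the lowest Tconv library. Treg minus Tconv was −1.43 in spleen, −1.03 in PBMC, −0.79 in LDLN and −2.04 in liver (SE 0.238 each, limma adjusted p = 0.000167, 0.00363, 0.0282 and 2.64e-06 in that order). The LDLN call was lost when any single one of its 6 libraries was left out, with adjusted p from 0.0508 to 0.107. In PBMC the difference without both NK-marker libraries was −0.72, adjusted p = 0.0258, and in liver it was −1.88, adjusted p = 2.97e-06. The receptor Fas was higher in Treg: its difference was 0.59 in spleen, 0.59 in PBMC, 0.60 in LDLN and 0.46 in liver (SE 0.112 each, limma adjusted p = 0.000675, 0.000576, 0.000587 and 0.00536 in that order).

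Granzyme K is a tryptase-like granzyme known from memory T cells. Gzmk (ENSMUSG00000042385, chromosome 13, 113171608 to 113225908, minus strand) had LDLN values of 7.59, 8.98 and 5.71 in Treg and 256, 452 and 37.1 in Tconv. Spleen gave 23.3, 21.2 and 9.12 in Treg and 358, 625 and 112 in Tconv, PBMC 20.8, 15.1 and 11.3 in Treg and 98.4, 289 and 52.2 in Tconv, and liver 46.3, 84.7 and 21.9 in Treg and 233, 561 and 91.7 in Tconv. The groups did not overlap in any tissue, although in liver the highest Treg value, 84.7, came near the lowest Tconv value, 91.7. Tconv values spread widely. The lowest value was in library 3 of each tissue, in Treg as well as in Tconv. Foxp3 was 492, 560.0, 29.7 and 593 in library 3 of liver, LDLN, PBMC and spleen Tconv. The part of Foxp3 or of the library number in the spread was not tested. Treg minus Tconv was −4.06 in spleen, −2.82 in PBMC, −4.30 in LDLN and −2.35 in liver (SE 0.803 each, limma adjusted p = 0.000987, 0.0161, 0.00057 and 0.0419 in that order). The LDLN and spleen calls held without any single library of their tissue. In PBMC the call was lost without Treg 3 (adjusted p = 0.0573) or Tconv 2 (0.103), and in liver without Treg 1 (0.0888), Treg 3 (0.148), Tconv 1 (0.0905) or Tconv 2 (0.169). Neither passed without both NK-marker libraries (−2.16, adjusted p = 0.0795 in PBMC and −1.70, adjusted p = 0.146 in liver), and without the Tconv libraries with Foxp3 above 100, where liver Tconv is Liver Tconv 2 alone, the liver difference was −3.63.

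Granzyme B cleaves caspases and is the granzyme most often linked to Treg. Gzmb (ENSMUSG00000015437, chromosome 14, 56258838 to 56262260, minus strand) was the gene of the 8 that was higher in Treg in more than 1 tissue. Its LDLN values were 34.1, 41.9 and 28.6 in Treg and 6.09, 4.68 and 10.04 in Tconv, its spleen values 286, 329 and 475 in Treg and 66.5, 53.5 and 70.8 in Tconv, and its PBMC values 383, 289.6 and 869.9 in Treg and 168, 205 and 72.7 in Tconv. These groups did not overlap. Of the printed windows that of Gzmb was the one with an AP-1 motif. In liver, by contrast, Treg gave 831, 1272 and 1586 and Tconv 497, 1890.2 and 822, and the ranges overlapped. Treg minus Tconv was 2.47 in spleen, 1.75 in PBMC, 2.22 in LDLN and 0.37 in liver (SE 0.441 each, limma adjusted p = 0.000356, 0.00711, 0.00109 and 0.597 in that order). In LDLN, where Tconv values were at or near 10 and under, a pseudocount of 10 gave a difference of 1.41. The PBMC call was lost without Treg 3 (adjusted p = 0.0581) or Tconv 3 (0.0601). Without both NK-marker libraries the difference was 2.04, adjusted p = 0.00157 in PBMC and 0.89, adjusted p = 0.137 in liver. Whether the Treg-Tconv difference of Gzmb depended on the tissue was asked by an F-test over the 4 tissues, added after the values were seen, and it did not pass (F = 4.50, limma adjusted p = 0.211).

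Granzyme A is a tryptase-like granzyme that is abundant in NK cells. Gzma (ENSMUSG00000023132, chromosome 13, 113093825 to 113100981, minus strand), a neighbour of Gzmk on its chromosome, had PBMC values of 113, 79.7 and 77.9 in Treg and 277, 605 and 539 in Tconv, which did not overlap. The difference there was −2.33 ± 0.793, adjusted p = 0.0451. The call was lost when any single one of the 6 PBMC libraries was left out (limma adjusted p 0.0501 to 0.135). Without both NK-marker libraries the difference was −2.11, adjusted p = 0.0821. Liver values were 128, 445 and 279 in Treg and 239, 2053 and 428 in Tconv, LDLN values 19.9, 47.9 and 4.76 in Treg and 10.1, 30.5 and 15.1 in Tconv, and spleen values 189.6, 28.9 and 21.9 in Treg and 44.3, 67.1 and 80.8 in Tconv. These overlapped, and none of the 3 differences passed (−1.23, adjusted p = 0.297 in liver, 0.022, adjusted p = 0.993 in LDLN and −0.32, adjusted p = 0.837 in spleen). The highest liver value was in Liver Tconv 2 and the highest spleen value in Spleen Treg 1, the libraries with the highest NK sums of their tissues. The part of NK cells in these values was not tested. Without both NK-marker libraries the liver difference was −0.34, adjusted p = 0.811, and without Spleen Treg 1 the spleen difference was −1.27, adjusted p = 0.336. Gzmm (ENSMUSG00000054206, chromosome 10, 79689020 to 79695261, plus strand), a granzyme known from NK cells, was low throughout, from 14.6 to 60.5 over the 24 libraries, and was not called in any tissue. Its differences ran from −0.44 in PBMC (adjusted p = 0.473) to 0.38 in spleen (adjusted p = 0.523).

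Ctsw encodes cathepsin W, a cysteine protease of NK and T cells, and Nkg7 a membrane protein of cytotoxic granules. Ctsw (ENSMUSG00000024910, chromosome 19, 5465043 to 5468507, minus strand) was lower in liver Treg, with 1459, 2143 and 1929 against 3473, 4419 and 3178 in liver Tconv. It was higher in LDLN Treg, with 6125, 5709 and 5520.0 against 4009, 3576 and 3494 in Tconv. PBMC gave 3128, 3359 and 3034 in Treg and 2086, 3052 and 2595 in Tconv, and spleen 1372, 1360.5 and 1317 in Treg and 1236, 1243 and 1278 in Tconv. The liver, LDLN and spleen groups did not overlap, while in PBMC Tconv 2 lay above the lowest Treg library. Treg minus Tconv was 0.11 in spleen, 0.32 in PBMC, 0.65 in LDLN and −1.005 in liver (SE 0.134 each, limma adjusted p = 0.649, 0.116, 0.00157 and 1.32e-05 in that order). In PBMC the difference passed without Tconv 2 (adjusted p = 0.0324) and without both NK-marker libraries (0.45, adjusted p = 0.0156); in liver the latter gave −0.87, adjusted p = 3.51e-05. Nkg7 (ENSMUSG00000004612, chromosome 7, 43437073 to 43438249, plus strand) had 2153, 3057 and 2249 in liver Treg and 3292, 9025 and 3550.2 in liver Tconv, and in PBMC 1069.6, 1102 and 1087 in Treg and 1548, 3381 and 1200.4 in Tconv. Both pairs of groups were apart, with the highest value in the NK-marker library, but neither difference passed (−0.94, adjusted p = 0.123 in liver and −0.76, adjusted p = 0.251 in PBMC). LDLN gave 1136, 909.8 and 1362 in Treg and 967, 1119 and 331 in Tconv, and spleen 1753, 1289 and 1183 in Treg and 2275, 2105 and 1061 in Tconv. These overlapped and did not pass either (0.66, adjusted p = 0.391 and −0.31, adjusted p = 0.683). Without both libraries the liver difference was −0.48, adjusted p = 0.399 and the PBMC difference −0.33, adjusted p = 0.646, whereas without the Tconv libraries with Foxp3 above 100 Nkg7 was lower in liver Treg, against Liver Tconv 2 alone (−1.88, adjusted p = 0.0044) and PBMC Treg (−0.89, adjusted p = 0.0492).

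Over the 8 genes, the libraries of Treg and Tconv did not overlap for 6 genes in spleen, 7 in PBMC, 5 in LDLN and 5 in liver. Among all genes tested this was so for 34.4%, 29.8%, 36% and 35.1% in the same order. NK cell markers moved with some of these comparisons: of 8 markers, 2 were lower in liver Treg and 2 in PBMC Treg (Klrb1c and Klre1 in both, Klrb1c encoding NK-1.1), and 0 were called in LDLN or spleen. With both NK-marker libraries left out, 2 of the 8 were higher in spleen Treg, 1 was higher and 2 lower in PBMC Treg, 1 was higher and 1 lower in liver Treg, and 0 were called in LDLN, and 1 of 2 CD8 T cell markers was higher in spleen Treg, where 0 were with all libraries. The NK marker sums were 107 to 221 in LDLN Treg and 158 to 239 in LDLN Tconv, and 591 to 1527 in spleen Treg and 341 to 437 in spleen Tconv. Macrophage markers summed to 2079 to 2510.2 in PBMC Treg and 253 to 516 in PBMC Tconv, and to 2282 to 4337 and 817 to 854 in spleen. Of 7 macrophage markers 1 was higher in PBMC Treg and 0 in spleen or liver Treg, whereas without the 2 libraries 3 were higher in PBMC Treg, 4 in spleen Treg and 5 in liver Treg. B cell markers summed to 5542 to 15692 in spleen Treg and 2299.7 to 3664 in spleen Tconv, and 1 of 5 was higher. Without the 2 libraries 4 of 5 were higher in spleen Treg and 5 of 5 in liver Treg, where 0 were called with all libraries. No spleen library was left out in this setting, so the spleen calls moved only with the shared spread and the genes tested. Spleen medians were the same in both fits, at 0.739 for NK, 1.09 for CD8 T cell, 1.81 for macrophage and 1.31 for B cell markers. The part of NK cells, CD8 T cells, macrophages and B cells in the differences was not tested. Leaving out Spleen Treg 1 left the spleen calls of Gzmb, Gzmk, Prf1 and Fasl in place, with differences of 2.63, −4.29, −2.38 and −1.48. Treg pools and Tconv pools are the replicates. The p-values set each difference against the spread between pools, estimated for each gene over all 8 groups together.

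**Figure D2:**
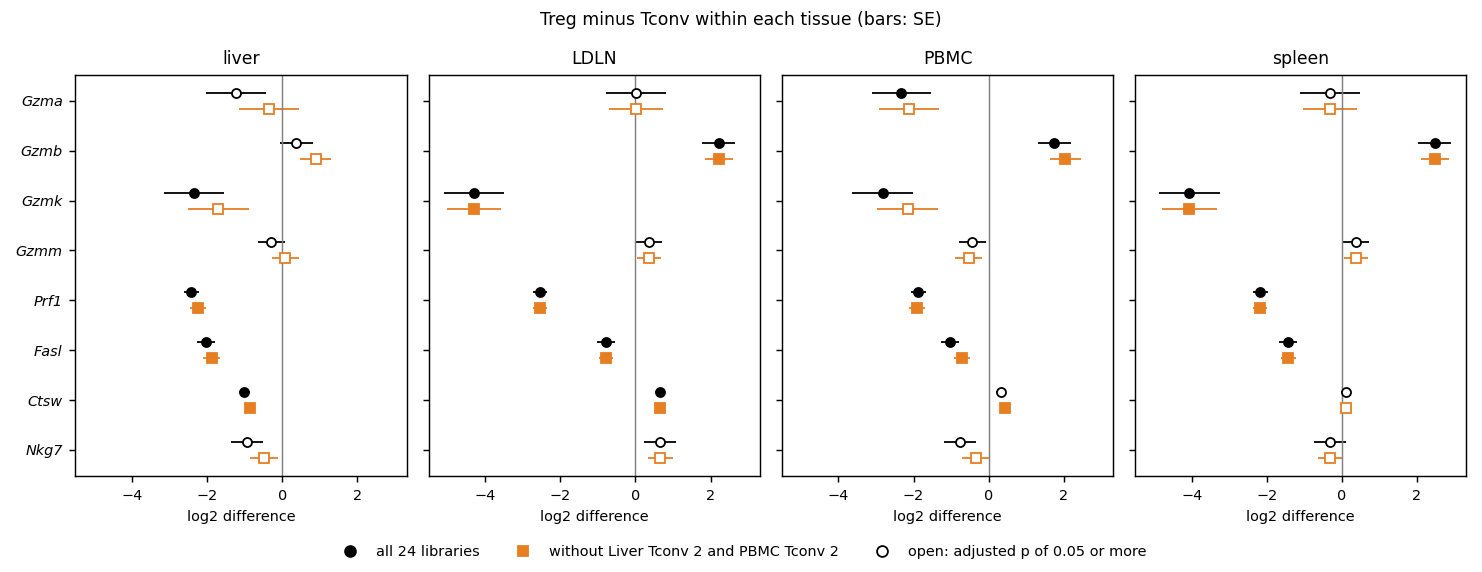
Log2 differences of Treg minus Tconv (x axis) for the 8 genes in each tissue, with bars of 1 SE, from all 24 libraries (black) and without Liver Tconv 2 and PBMC Tconv 2 (orange); open symbols mark an adjusted p of 0.05 or more. Prf1 and Fasl lie left of 0 and filled in all panels, Gzmb lies right of 0 and filled outside liver, and Ctsw changes side between liver and LDLN.

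Liver was then compared with the mean of LDLN, PBMC and spleen within each cell type. Granzymes A and B and Nkg7 were higher in liver in both Treg and Tconv, whereas perforin, Fasl, Gzmk and Gzmm were called in neither. Ctsw was lower in liver Treg and higher in liver Tconv. In Treg 3 of 8 genes were higher and 1 lower, against 9.66% higher, 10.1% lower and 19.7% in either direction among all genes. In Tconv 4 were higher and 0 lower, against 2.58% and 0.598% (3.18% in either direction). The median difference of the 8 genes was 0.46 in Treg and 0.68 in Tconv, beside 0.034 and 0.012 over all genes. With the NK-marker libraries left out 3 genes were higher in liver Tconv (Gzmb, Ctsw and Nkg7), against 0.905% of all genes in either direction. In Treg 4 were higher and 1 lower (21.6% of all genes), Gzmk being the added gene (limma adjusted p = 0.0393). No Treg library was left out there. The Gzmk difference was 1.76 in both fits, and its SE was 0.656 with all libraries and 0.593 in this setting. The count over all genes itself moved with single libraries: in Tconv it was 590, and 1176, 137 and 294 without Liver Tconv 1, 2 and 3, and in Treg it was 3662, and 2019 without Liver Treg 2.

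Granzyme B was higher in liver in both cell types. The difference was 2.73 ± 0.36 in Treg (adjusted p = 1.85e-05) and 4.50 ± 0.36 in Tconv (adjusted p = 1.96e-07), and without both NK-marker libraries the latter was 4.08, adjusted p = 3.54e-06. Group means were 1229.7 ± 379 in liver Treg, 514 ± 312 in PBMC Treg, 363 ± 99.1 in spleen Treg and 34.9 ± 6.70 in LDLN Treg (SD, n = 3 each). In Tconv they were 1070.0 ± 729, 148 ± 68.1, 63.6 ± 9.001 and 6.94 ± 2.77 in the same order. Liver was above each of the other tissues in both cell types. The smallest of these differences was against PBMC, in Treg (1.37, adjusted p = 0.0406, where 14.4% of all genes were called) and in Tconv (2.75, adjusted p = 0.000483, 4.77% called). The largest was against LDLN, in Treg (5.07, adjusted p = 3.83e-08, 30.1% called) and in Tconv (6.91, adjusted p = 1.1e-09, 11.5% called). These contrasts share the liver libraries. LDLN was below PBMC and spleen in both cell types too, for example against spleen in Treg (−3.33, adjusted p = 8.37e-06, 28% called).

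Granzyme A was higher in liver by 2.54 ± 0.648 in Treg (adjusted p = 0.00817) and 2.90 ± 0.648 in Tconv (adjusted p = 0.0127). The Treg call was lost without Liver Treg 2 (adjusted p = 0.0775) and the Tconv call without Liver Tconv 2 (0.268). With both NK-marker libraries left out the Tconv difference was 2.08, adjusted p = 0.263, and without the Tconv libraries with Foxp3 above 100, where liver Tconv is Liver Tconv 2 alone, it was 4.61, adjusted p = 0.00709. PBMC Tconv, at 277, 605 and 539, were not told apart from liver Tconv (0.40, adjusted p = 0.882). Liver was above LDLN in Treg (3.81, adjusted p = 0.00094) and in Tconv (5.06, adjusted p = 0.000204), and without the NK-marker libraries the Tconv difference was 4.17, adjusted p = 0.00312.

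Nkg7 was higher in liver by 1.04 ± 0.346 in Treg (adjusted p = 0.0375) and 1.85 ± 0.346 in Tconv (adjusted p = 0.00324). The Treg call was lost when any of 7 libraries was left out, namely Liver Treg 1 (adjusted p = 0.0745), Liver Treg 2 (0.179), Liver Treg 3 (0.07), LDLN Treg 1 (0.0507), LDLN Treg 2 (0.0605), Spleen Treg 2 (0.0547) or Spleen Treg 3 (0.0542). The Tconv call was lost without Liver Tconv 2 alone (adjusted p = 0.0874) but passed without both NK-marker libraries (1.53, adjusted p = 0.0224). The other 2 liver Tconv libraries, at 3292 and 3550.2, still lay above every other Tconv library except PBMC Tconv 2 (3381), which lay above the lower of them.

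Perforin was not called between liver and the lymphoid mean: the difference was −0.12 ± 0.161, adjusted p = 0.626 in Treg and 0.099 ± 0.161, adjusted p = 0.877 in Tconv, with group means in Tconv from 1247 to 1437. Between single tissues, Prf1 was lower in LDLN Treg than in PBMC Treg (−0.85, adjusted p = 0.00495, where 16.1% of all genes were called). Fasl had −0.27 ± 0.194, adjusted p = 0.333 in Treg and 0.68 ± 0.194, adjusted p = 0.0589 in Tconv, and the lymphoid mean joined tissues on both sides of liver. Liver Tconv was above LDLN (1.5003, adjusted p = 0.000227) and PBMC (1.55, adjusted p = 0.000284) and below spleen (−1.002, adjusted p = 0.0113, where 7.88% of all genes were called). Liver Treg was below spleen Treg (−1.61, adjusted p = 8e-05, 18.8% called). The Fasl difference in Tconv passed without PBMC Tconv 2 (adjusted p = 0.0112) or Spleen Tconv 1 (0.0331), and not without both NK-marker libraries (0.63, adjusted p = 0.175). This difference also passed in limma with quantile scaling (adjusted p = 0.0364) and upper quartile scaling (0.0475). On recovered reads it passed with edgeR (adjusted p = 0.0391) and DESeq2 (adjusted p = 0.016). Gzmk had 1.76 ± 0.656, adjusted p = 0.0629 in Treg, which passed without Liver Treg 3 (adjusted p = 0.0459), and 0.38 ± 0.656, adjusted p = 0.887 in Tconv. The Gzmk difference in Treg also passed with only the groups compared (limma adjusted p = 0.00726) and with DESeq2 on recovered reads (adjusted p = 0.0227). Gzmm had −0.15 ± 0.288, adjusted p = 0.745 in Treg and 0.24 ± 0.288, adjusted p = 0.813 in Tconv.

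NK cell markers also stood higher in liver. Of 8 markers 3 were higher in liver Tconv (Klre1, Klrb1c and Tyrobp) and 1 in liver Treg (Klre1). Among all genes 2.58% and 9.66% were higher. Without both NK-marker libraries 2 and 3 NK markers were. Of 3 tested innate-like and gamma-delta T cell markers 1 was higher in each cell type, and 1 and 2 without the 2 libraries. Their medians were 1.84 in Tconv and 1.68 in Treg, beside 2.23 and 1.38 for NK markers. Without the 2 libraries 3 of 5 B cell markers were higher in liver Treg, and 1 of 7 macrophage markers was lower in both cell types. The NK sums were 305, 1086 and 953 in liver Treg, 668 to 779.9 in PBMC Treg, 591 to 1527 in spleen Treg and 107 to 221 in LDLN Treg. Liver Treg 1, with the lowest NK sum of the liver libraries, had Gzmb of 831 and Nkg7 of 2153, and spleen Treg 1, with an NK sum of 1527, had 286 and 1753. Gzma was at 128 in Liver Treg 1 and 189.6 in Spleen Treg 1. Among the liver Treg libraries, Gzma, Gzmb and Nkg7 were all lowest in Liver Treg 1. Liver Treg 2 and 3 had 445 and 279 for Gzma, 1272 and 1586 for Gzmb, and 3057 and 2249 for Nkg7. The part of NK cells, innate-like T cells and B cells in the liver differences of these 3 genes was not tested.

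**Figure D3:**
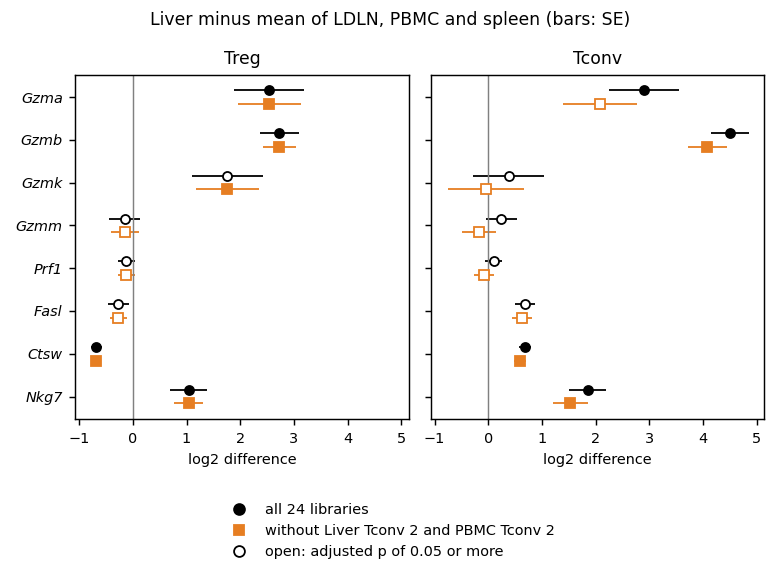
Log2 differences of liver minus the mean of LDLN, PBMC and spleen (x axis) for the 8 genes in Treg and in Tconv, with bars of 1 SE, from all 24 libraries (black) and without Liver Tconv 2 and PBMC Tconv 2 (orange); open symbols mark an adjusted p of 0.05 or more. Gzmb and Nkg7 are filled and right of 0 in both panels, Gzma loses its Tconv call without the 2 libraries, and Ctsw lies on opposite sides of 0.

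**Figure D4:**
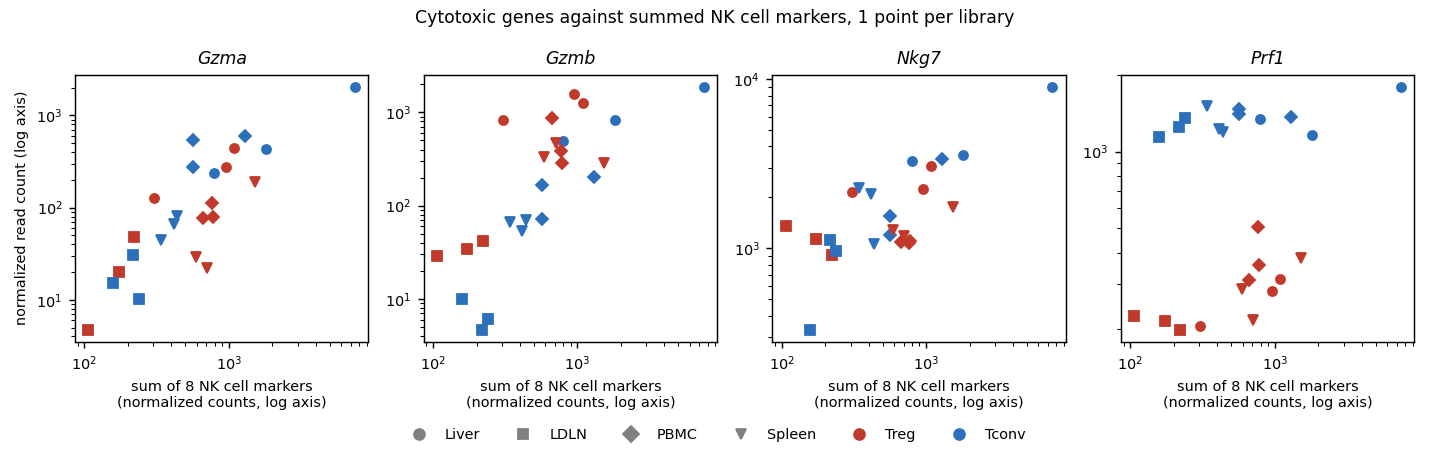
Normalized read counts of Gzma, Gzmb, Nkg7 and Prf1 against the summed normalized counts of 8 NK cell markers, 1 point per library on log axes, with tissue by symbol and Treg in red, Tconv in blue. Liver Tconv 2 lies alone at a sum of 7499 and has the highest value of each gene shown. Prf1 is higher in every Tconv library than in every Treg library, and the highest sum of a Treg library is 1527.

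The last comparison asked whether the liver difference itself depended on the cell type. The test passed for Ctsw alone among the 8 genes, in the lower direction, against 0.371% of all genes lower, 0.377% higher and 0.748% either. Liver minus lymphoid was −0.68 ± 0.11 for Ctsw in Treg (adjusted p = 0.000161) and 0.68 ± 0.11 in Tconv (adjusted p = 0.000851), and the difference between these was −1.36 ± 0.155, adjusted p = 0.000147. In Treg the means were 5785 ± 309.7 in LDLN, 3174 ± 167 in PBMC, 1844 ± 349.6 in liver and 1349.7 ± 29.1 in spleen, while in Tconv they were 3693 ± 277, 2578 ± 483, 3690.3 ± 648 and 1252 ± 22.8 (SD, n = 3 each). Liver Treg was below LDLN Treg (−1.67, adjusted p = 1.25e-08) and PBMC Treg (−0.80, adjusted p = 0.000359), whereas liver Tconv was not told apart from LDLN Tconv (−0.013, adjusted p = 0.973). Liver Tconv was above PBMC Tconv (0.52, adjusted p = 0.0253), a call that was lost without both NK-marker libraries (0.51, adjusted p = 0.0553). Spleen was below liver in both (0.43, adjusted p = 0.0285 in Treg and 1.54, adjusted p = 6.77e-07 in Tconv). Without both NK-marker libraries the difference of the liver effects was −1.27 ± 0.14, adjusted p = 0.000286, where 1.4% of all genes were called.

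The F-test of the dependence on tissue, added after the values were seen, also called Ctsw (F = 28.5, limma adjusted p = 0.000159) and none of the other 7 genes, with 2% of all genes called. Gzmb (−1.77, adjusted p = 0.118) and Fasl (−0.96, adjusted p = 0.118) had the next largest liver differences between the cell types relative to their errors, and neither passed. The Fasl difference passed without PBMC Tconv 2 alone (adjusted p = 0.0364) and was −0.90, adjusted p = 0.0745 without both NK-marker libraries. The Gzmb difference was −1.35, adjusted p = 0.198 without both NK-marker libraries. Without the Tconv libraries with Foxp3 above 100, where liver Tconv is Liver Tconv 2 alone, it was −2.98. The remaining differences were 1.38, adjusted p = 0.583 for Gzmk, −0.81, adjusted p = 0.538 for Nkg7, −0.39, adjusted p = 0.743 for Gzmm, −0.36, adjusted p = 0.911 for Gzma and −0.22, adjusted p = 0.741 for Prf1.

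Across the 8 groups, the order of levels differed by gene. For Prf1 the 4 Tconv groups came first and the 4 Treg groups last, and the single neighbouring pair that differed was LDLN Tconv above PBMC Treg (adjusted p = 1.65e-06). For Fasl spleen Tconv differed from liver Tconv next to it (adjusted p = 0.0113) and spleen Treg from PBMC Tconv next to it (0.000664). For Gzmb spleen Treg differed from PBMC Tconv (0.0168) and LDLN Treg from LDLN Tconv (0.00109), and no neighbouring step among liver Treg, liver Tconv, PBMC Treg and spleen Treg above them passed. For Ctsw 3 of 7 neighbouring pairs differed: LDLN Treg and LDLN Tconv (0.00157), PBMC Tconv and liver Treg (0.00786), and liver Treg and spleen Treg (0.0285). For Gzma, Gzmk, Gzmm and Nkg7 none of 7 did. Of all genes 24.5% were called between LDLN Tconv and PBMC Treg, 38.1% between PBMC Tconv and spleen Treg, and 32.7% between liver Treg and PBMC Tconv.

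To compare genes with each other, levels were divided by the union exon length in kilobases. On this scale Nkg7 and Ctsw were the most abundant of the 8 in 7 of 8 groups; in spleen Tconv they were Nkg7 (1984 normalized counts per kilobase) and Fasl (1550.1). In liver Treg Gzmb came next (856), above Gzma (283), Fasl (184) and Prf1 (104). In LDLN Treg no granzyme exceeded 24.3 per kilobase, and Prf1 was at 82.5.

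Other genes of the cytotoxic pathway were read from a list of 39, of which 34 were tested. Between Treg and Tconv 18 of these were higher and 3 lower in spleen Treg, 15 and 1 in PBMC, 13 and 4 in LDLN, and 15 and 3 in liver, with medians of 0.39, 0.26, 0.27 and 0.34. Among all genes tested 10.1% were higher and 8.75% lower in spleen Treg, 10.2% and 7.95% in PBMC, 7.83% and 5.99% in LDLN, and 10.2% and 10.3% in liver, and their medians were −0.017, −0.011, 0.0023 and 0.026. The same shares stand beside the counts of the smaller lists of this pathway. Leaving out both NK-marker libraries gave 18 higher and 2 lower for liver and 14 and 4 for LDLN, with 16 and 1 for PBMC and 18 and 4 for spleen. Of 6 other granzymes only Gzmc was abundant enough to be tested. It was higher in Treg in liver (49.2, 73.6 and 92.8 against 15.6, 21.1 and 31.9, difference 1.62, adjusted p = 0.00185), PBMC (2.34, adjusted p = 4.8e-05) and spleen (1.12, adjusted p = 0.0276). How reads shared between near-identical granzymes were counted is not given in the sources used here.

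Of 5 genes that process and store granzymes 4 were higher in spleen, 3 in PBMC, 4 in LDLN and 2 in liver, and 0 were lower. Srgn, the proteoglycan that packs granzymes, was higher by 0.96 in liver (21501, 20300.1 and 19904 against 8520.0, 13503 and 10296, adjusted p = 0.00155). Cst7, which inhibits the cathepsin that activates granzymes, was higher by 1.92 in LDLN (adjusted p = 1.27e-05) and 2.01 in spleen (adjusted p = 8.02e-06), and Igf2r, a mannose 6-phosphate receptor, the class that carries granzymes to granules, by 1.39 in LDLN (adjusted p = 1.93e-06). In liver Treg Igf2r (−0.95, adjusted p = 3.3e-05) and Cst7 (−0.78, adjusted p = 0.0117) were lower than in lymphoid Treg.

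Of 10 genes of granule transport and release 5 were higher and 1 lower in liver Treg, 2 and 1 in LDLN, 5 and 1 in PBMC, and 5 and 1 in spleen. The gene that was lower was Lyst, which shapes lysosome-related granules, with −0.96 in spleen, −0.95 in PBMC, −1.41 in LDLN and −1.20 in liver (SE 0.116 each, limma adjusted p = 3.7e-06, 4.03e-06, 1.41e-08 and 2.22e-07 in that order). Stx11, a fusion protein of granule exocytosis, was higher by 2.15 in liver (601, 660.1 and 518 against 119.8, 231 and 82.7, adjusted p = 0.00153) and Sytl2, which tethers granules to the membrane, by 0.99 (adjusted p = 1.64e-05). Among 4 genes listed as granzyme inhibitors, Serpinb6a was higher in Treg in each tissue, for example by 0.57 in liver (adjusted p = 0.000347). Its action on granzymes was not tested. Of 6 death receptors, ligands and caspases 4 were higher in liver Treg and 3 in spleen Treg, and 0 were lower. The death ligand Tnfsf10 (TRAIL) was higher in Treg where Fasl was lower, with 0.85 in spleen, 0.60 in PBMC, 1.03 in LDLN and 0.35 in liver (SE 0.102 each, limma adjusted p = 3.45e-06, 0.00017, 2.14e-07 and 0.0176 in that order).

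The transcription factors of cytotoxic cells divided by gene. Prdm1 (Blimp-1) and Hopx were higher in Treg in all 4 tissues, with liver values of 1841, 1526 and 1598 against 524, 748 and 666 for Prdm1 (1.37, adjusted p = 0.000455) and 147, 160.2 and 155 against 51.7, 88.4 and 49.8 for Hopx (1.32, adjusted p = 0.00307). Eomes, which drives cytotoxic genes in CD8 T and NK cells, was lower in LDLN Treg (−2.70, adjusted p = 0.00155) and spleen Treg (−2.32, adjusted p = 0.00517), and in liver (−1.61, adjusted p = 0.0446) its call was lost without both NK-marker libraries (−0.93, adjusted p = 0.206). Zfp683 (Hobit) was lower in liver Treg (−1.80, adjusted p = 0.000155). Between liver and the lymphoid tissues 4 of 8 were higher in Treg and 6 in Tconv, and 0 were lower; without both NK-marker libraries 5 and 3 were higher. Tbx21 (T-bet) was higher in liver in both, by 1.63, adjusted p = 0.00134 in Treg and 1.87, adjusted p = 0.00204 in Tconv, and by 1.45, adjusted p = 0.0494 in Tconv without the 2 libraries. Over the whole list of 34 tested genes 8 were higher and 4 lower in liver Treg, and 9 and 0 in liver Tconv, against 4 and 0 in Tconv without the 2 libraries. Their medians were 0.12 in Treg and 0.11 in Tconv, beside 0.034 and 0.012 over all genes. The shares called among all genes tested were 9.66% higher and 10.1% lower for liver Treg, against 2.58% and 0.598% for liver Tconv.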

How the data were processed

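The authors deposited 1 table of normalized read counts, a signal in which, from the values, each library's reads were divided by a size factor. The submitters' processing notes name SAMtools 0.1.19, HTSeq 0.6.1p1, TopHat2 2.0.11, Trimmomatic 0.32 and Bowtie2 2.2.2 and the build GRCm38. Strand setting, annotation and scaling tool are not given in the sources used here; overlapping genes can thus share reads. Within a tolerance of 0.001, 100% of values were whole reads. Symbols were found for 34645 of 35612 identifiers, with coordinates from GENCODE M21.

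A gene was tested if its value was 10 or more in 3 or more of the 24 libraries (18576 genes). limma 3.58.1 (R 4.3.3) fitted log2(value + 1) over the 8 groups that the labels give, with a variance trend (16 residual degrees of freedom), after being tested on simulated data. Benjamini-Hochberg adjustment ran over the genes of each of 7 comparisons and 28 pairs of groups. A pseudocount of 1 understates changes of low genes. The 8 genes and the lists were chosen with earlier results of these data known. All 8 were named in each comparison, and of other lists at most 4 called genes with the smallest adjusted p.

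The labels do not say whether pools with the same number share mice. Deviations of same-numbered Treg and Tconv pools correlated at 0.385, 0.188 and 0.102 in liver and 0.122, 0.147 and 0.31 in LDLN. In PBMC they correlated at 0.252, 0.0822 and 0.134 and in spleen at 0.0707, 0.1365 and 0.416. Of these 12 pairs 10 exceeded 0.1. Of 24 pairs with other numbers within a tissue 4 also exceeded 0.1, with r from −0.304 to 0.2. The main fit left pools unpaired, and pairing entered only as an alternative. Alternatives were pseudocounts, filters, scaling, no variance trend, only the groups compared, replicate blocks, edgeR 4.0.16 and DESeq2 1.42.0 on recovered reads, and libraries left out.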

Additional observations from a re-analysis of the deposited data

Results flagged for a closer look

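The liver difference of Ctsw differed between the cell types in a test of that difference: the value in Treg minus the value in Tconv was −1.36 ± 0.155, adjusted p = 0.000147 (limma), with liver Treg libraries at 1459, 2143 and 1929 and liver Tconv libraries at 3473, 4419 and 3178. Over 37 alternatives it ran from −1.58 to −1.20, with a highest adjusted p of 0.00142.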

How the results depend on the processing

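Of 27 called differences of the 8 genes, 0 changed sign under the settings that do not leave out a single library, and 14 of 369 recomputed values lost the call. Of 29 not called, 12 of 384 values changed sign and 18 gained a call. Lost calls, beside those given above, were Gzmk in liver (no filter, no variance trend, only the groups compared), Gzma in PBMC (pseudocount 0.1, no filter, no variance trend), Fasl in LDLN (no variance trend) and Nkg7 in liver Treg (no filter, no variance trend) and in liver Tconv (only the groups compared). The cause was not tested. Values under 10, as for Gzmk in LDLN Treg and Gzmb in LDLN Tconv, rest on few reads, and with 3 pools a group a difference that did not pass is not shown to be absent.

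The number of all genes called for liver against lymphoid tissues in Tconv was 590, and 282 with only the groups compared, 947 with edgeR, 1137 with DESeq2, 167 without both NK-marker libraries and 1359 without the Tconv libraries with Foxp3 above 100, where the count for Treg against Tconv in liver was 1378 instead of 3808. For the difference of liver effects it was 139, and 255 with quantile scaling, 410 with DESeq2, 259 without both NK-marker libraries and 254 without the Tconv libraries with Foxp3 above 100. In the last of these settings liver Tconv was Liver Tconv 2 alone. With DESeq2 3 of the 8 genes were called (Gzmb, Fasl and Ctsw). With the replicate number as a block over all tissues the count was 259, with 2 of the 8 genes called (Fasl, adjusted p = 0.0428, and Ctsw), and Gzmk in liver Treg (0.00132) and Fasl in liver Tconv (0.0187) passed; with the replicate block within tissue it was 312. That block changed no call of the 8 genes in liver or LDLN. In PBMC, where not every same-numbered pair correlated above 0.1, Ctsw passed (limma adjusted p = 0.036).

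With 1 library left out, genes called ranged over 2630 to 4023 in liver, 1800 to 2192 in LDLN, 2703 to 3206 in PBMC and 2350 to 3262 in spleen (of the 8 genes 3 to 4, 4, 2 to 4 and 4), 2019 to 3808 for liver Treg (2 to 4), 137 to 1176 for liver Tconv (2 to 5) and 32 to 272 for the difference of liver effects (1 to 2); the last was 32 without Liver Treg 2 and 77, 272 and 78 without Liver Tconv 1, 2 and 3.

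Values that changed sign were called in neither form. Gzma in LDLN was −0.0077 with pseudocount 0.1, −0.089 with quantile scaling and −0.052 without the Foxp3 libraries, and Gzma in spleen 0.36 with edgeR and 0.32 with DESeq2. Without both NK-marker libraries Gzmm in liver was 0.086, liver Tconv gave −0.045 for Gzmk, −0.17 for Gzmm and −0.082 for Prf1, and the difference of liver effects 0.46 for Gzma and 0.018 for Gzmm. Gzmb in liver was −0.67 without the Foxp3 libraries. With 1 library left out the ranges that crossed 0 were −0.25 to 0.059 for Prf1 for liver Treg, −1.02 to 0.53 for Gzma for the difference of liver effects, −0.61 to 0.18 for Gzmm in liver, −0.47 to 0.32 for Gzmm for liver Treg, −0.71 to 0.078 for Gzmm for the difference of liver effects, −0.070 to 0.89 for Gzmb in liver, −0.27 to 1.03 for Gzmk for liver Tconv, −0.14 to 0.55 for Gzmm for liver Tconv, −0.075 to 0.24 for Prf1 for liver Tconv, −0.70 to 0.85 for Gzma in LDLN and −1.27 to 0.26 for Gzma in spleen.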

Other observations

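Across the 24 libraries the 8 genes did not vary as a block, as given by Pearson's r of log2(value + 1), which is a description of libraries that share tissues and cell types. Gzmk and Prf1 had r = 0.844, and 0.819 over the 22 libraries without Liver Tconv 2 and PBMC Tconv 2. Gzma went with Nkg7 (0.724, and 0.592 over 22) and with Gzmb (0.679 and 0.658). Gzmb and Prf1 had −0.252 (−0.391 over 22), and Fasl and Ctsw −0.526 (−0.626).

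Among 10549 genes with a mean of at least 50, those most like Prf1 over the 24 libraries were Ggt5 (0.975), Hs3st3b1 (0.975) and Mctp2 (0.968). Those most like Fasl were Taf1d (0.95), Nasp (0.942) and Prdx6 (0.938), and those most like Gzmb were Carmil1 (0.923), Lrrk1 (0.917) and BC049352 (0.915). For Gzma they were Pltp (0.927), Gapt (0.909) and Rnase6 (0.905). For Gzmk they were Msra (0.914), Shld1 (0.895) and Ehd3 (0.891), and over 22 libraries Il2 (0.883) took the place of Shld1. Nkg7 was most like the chemokine gene Ccl5 (0.867, and 0.815 over 22), followed by Gabarapl2 (0.861) and Spry2 (0.855). Genes like Ctsw included Wdr5b (0.895) and Zfp950 (0.877), and for Gzmm the highest were F5 (0.588), Atg4c (0.563) and Ccdc88a (0.556).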
